A study of Mus musculus with 136 samples.

Results

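SUZ12 belongs to the core of PRC2, the Polycomb repressive complex that methylates histone H3, and its peaks in clone 439 and clone 442, a pair of independent mouse embryonic stem cell (ESC) lines carrying the same MCM2-2A mutation, were compared with each other to measure how far clones of one genotype differ. The members were all 15411 listed SUZ12 peaks of the 2 clones (7571 in clone 439 and 7840 in clone 442), of 607753 regions in the 10 peak lists of the series, and they came from 6 of its 136 samples, with 3 SUZ12 ChIP samples in each clone. A peak was counted as shared when it overlapped a peak of the other clone by at least 1 bp, and as single-clone otherwise. Joining overlapping peaks of both clones gave 8653 sites, of which 1009 were in clone 439 only, 1305 in clone 442 only and 6339 in both.

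Both mutant clones carry MCM2-2A, a mutation of the histone-binding part of the replicative helicase subunit MCM2, and WT clone 410, with 6298 SUZ12 peaks, carries the unmutated gene. All 3 are single clones of the E14JU ESC line, grown untreated in serum with leukaemia inhibitory factor, so a difference between them can belong to the clone as much as to the genotype. WT clone 410 histone marks came from separate native ChIP experiments, with 2 samples a mark in the original experiment and 3 in the rescue experiment. Each SUZ12 list had been made from the 3 samples of a clone together, so no value per sample could be given and no difference between clone 439 and clone 442 could be tested against replicate spread. The intervals below are 95% Wilson intervals and cover counting error only, and the read depth behind the lists is not part of the peak files.

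PRC2 trimethylates lysine 27 of histone H3 (H3K27me3), a mark of silenced genes that the complex also recognises through another of its subunits, EED. In ESCs, PRC2 sits mainly at CpG-rich promoters of developmental regulators that are off but can be switched on during differentiation, many of which also carry H3K4me3, the mark of active or poised promoters. H3K27ac marks active promoters and enhancers and cannot occupy the same residue as H3K27me3.

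The promoters of 5 genes show the kind of sequence under the peaks. For each clone they are the strongest 2 single-clone genes with a RefSeq promoter entry, Tmem121 and Mest for clone 439 and Cdkn2b and Ybx2 for clone 442. Their SUZ12 peak met no peak of the other clone, which had none within 2500 bp of the gene start. Tbx1 is 1 of the 10 strongest genes in both. Each sequence runs 5′ to 3′ over 300 bases, 250 before and 50 after the gene start, from RefSeq on GRCm38.p6, and capitals mark CG dinucleotides, a sequence feature that PRC2 targets in mammals are known for. They lie at chr12:113185653-113185952 on the + strand (Tmem121), at chr6:30737800-30738099 on the + strand (Mest), at chr4:89310983-89311282 on the - strand (Cdkn2b), at chr11:69935649-69935948 on the + strand (Ybx2) and at chr16:18588850-18589149 on the - strand (Tbx1).
Tmem121: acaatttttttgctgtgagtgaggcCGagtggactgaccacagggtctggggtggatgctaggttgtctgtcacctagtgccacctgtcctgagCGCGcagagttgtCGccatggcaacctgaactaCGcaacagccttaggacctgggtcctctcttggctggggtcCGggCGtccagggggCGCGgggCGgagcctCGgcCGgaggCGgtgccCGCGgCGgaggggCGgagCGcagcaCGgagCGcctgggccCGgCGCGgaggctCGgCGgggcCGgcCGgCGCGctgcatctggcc
Mest: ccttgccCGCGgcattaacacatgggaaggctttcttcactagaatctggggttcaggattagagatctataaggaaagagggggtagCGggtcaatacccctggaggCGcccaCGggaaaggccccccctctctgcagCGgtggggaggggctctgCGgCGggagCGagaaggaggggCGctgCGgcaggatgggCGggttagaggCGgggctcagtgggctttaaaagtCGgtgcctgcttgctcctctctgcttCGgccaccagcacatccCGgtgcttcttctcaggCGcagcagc
Cdkn2b: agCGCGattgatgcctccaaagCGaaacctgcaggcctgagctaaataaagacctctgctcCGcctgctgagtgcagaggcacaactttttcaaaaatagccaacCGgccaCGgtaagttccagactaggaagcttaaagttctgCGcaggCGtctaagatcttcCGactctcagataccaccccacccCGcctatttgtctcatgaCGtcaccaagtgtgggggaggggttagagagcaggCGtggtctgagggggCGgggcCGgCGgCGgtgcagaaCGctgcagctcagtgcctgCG
Ybx2: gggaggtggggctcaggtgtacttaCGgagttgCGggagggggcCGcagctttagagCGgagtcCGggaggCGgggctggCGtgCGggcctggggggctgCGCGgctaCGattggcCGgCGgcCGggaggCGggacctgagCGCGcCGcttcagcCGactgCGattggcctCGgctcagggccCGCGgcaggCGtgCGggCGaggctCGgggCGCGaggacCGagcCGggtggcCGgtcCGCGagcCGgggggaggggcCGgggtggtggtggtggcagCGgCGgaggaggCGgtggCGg
Tbx1: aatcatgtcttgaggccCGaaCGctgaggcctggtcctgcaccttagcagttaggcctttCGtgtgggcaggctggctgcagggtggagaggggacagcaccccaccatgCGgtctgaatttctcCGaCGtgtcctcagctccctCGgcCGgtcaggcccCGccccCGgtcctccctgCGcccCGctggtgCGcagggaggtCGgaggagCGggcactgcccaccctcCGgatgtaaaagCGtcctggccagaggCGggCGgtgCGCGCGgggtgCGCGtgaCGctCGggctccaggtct

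The printed promoters held 29 CG dinucleotides at Tmem121, 17 at Mest, 18 at Cdkn2b, 40 at Ybx2 and 26 at Tbx1, so CG-rich starts occurred in all 3 classes. Over all RefSeq promoters whose start lay inside a site, the median was 21 CG dinucleotides in clone 439 only sites (243 promoters), 24 in clone 442 only sites (463 promoters) and 22 in sites of both clones (3723 promoters), against 9 in the 16834 promoters outside any site. At least 10 CG dinucleotides were present in 84.8% (79.7 to 88.7%) of promoters in clone 439 only sites, 91.6% (88.7 to 93.8%) in clone 442 only sites and 86.2% (85.0 to 87.2%) in sites of both clones, against 56.8% of all 21263 promoters of the same length. The trinucleotide GCG, searched on both strands and overlapping the CG motif, was in 98.8% of promoters in clone 439 only sites, 99.8% in clone 442 only sites and 99.0% in sites of both clones, and in 85.2% of all promoters. The medians of the 3 classes with SUZ12 lay between 21 and 24.

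The cell identity of the series was read from WT clone 410, since SUZ12 itself does not mark a cell type. All 10 ESC markers, among them Pou5f1, Sox2 and Nanog, had an H3K27ac peak within 2500 bp, with a median fold enrichment of 32.5 over the markers. Of 12 markers of fibroblasts, endoderm and neurons, 8 had none, all of them fibroblast or endoderm markers. The 4 that had one were the fibroblast markers Thy1 and Vim and both neuron markers, Neurod1 and Tubb3. The share of all genes with an H3K27ac peak in this window is not given here.

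Of the clone 439 peaks, 1009 (13.3%, 12.6 to 14.1%) met no peak of clone 442, and of the clone 442 peaks, 1305 (16.6%, 15.8 to 17.5%) met none of clone 439. As shares of all 8653 sites, these were 11.7% for clone 439 only and 15.1% for clone 442 only. Single-clone peaks made up 1.15 Mb of the 21.5 Mb listed in clone 439 and 1.58 Mb of the 22.7 Mb listed in clone 442.

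Nearly all single-clone peaks were weak, and 1003 of the 1009 in clone 439 and 1292 of the 1305 in clone 442 ranked below the median of their list. Strength was read as the fold enrichment over local background that MACS2 gave each peak, ranked within its own list. In the weakest decile, 58.5% (54.98 to 62.0%) of clone 439 peaks and 66.7% (63.3 to 69.9%) of clone 442 peaks had no counterpart. The share was 2.64% in clone 439 and 3.32% in clone 442 by the fifth decile, and in the strongest decile it was 0 of 758 clone 439 peaks and 2 of 784 clone 442 peaks. The median fold enrichment was 5.29 for single-clone and 14.9 for shared peaks in clone 439, and 5.26 for single-clone and 14.0 for shared peaks in clone 442. Of the single-clone peaks, 45.9% in clone 439 and 46.1% in clone 442 had the highest reproducibility score (1000), against 92.3% of shared peaks in clone 439 and 92.1% in clone 442.

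**Figure D1:**
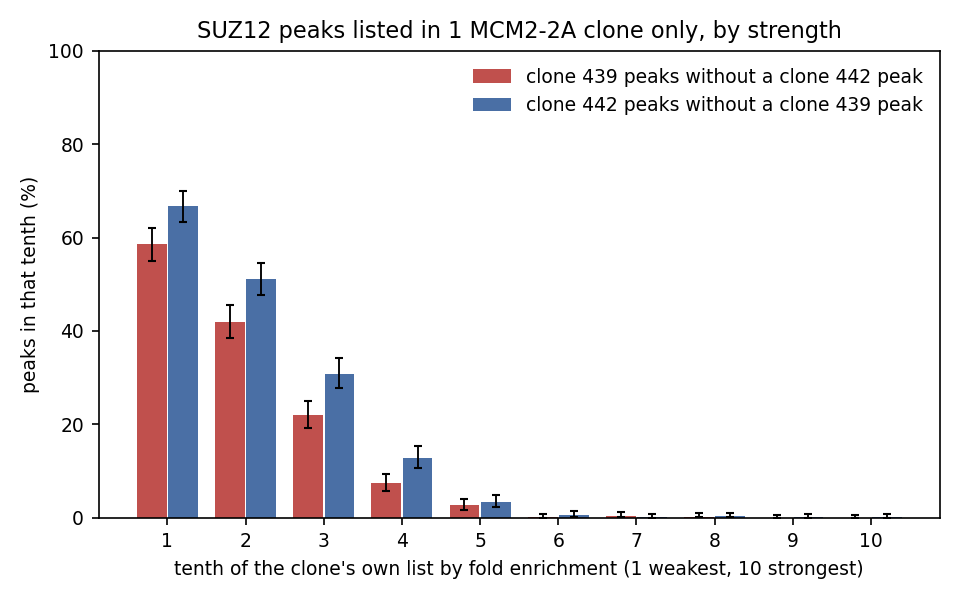
Share (%) of the peaks of clone 439 and clone 442 that overlapped no peak of the other clone, by decile of fold enrichment within each clone, 1 being the weakest and 10 the strongest, with 95% Wilson intervals. In the weakest decile 58.5% of clone 439 peaks and 66.7% of clone 442 peaks had no counterpart, and from the sixth decile upwards the share was below 1% in both clones.

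Single-clone peaks were also narrower. Their median width was 1047 bp against 2394 bp for shared peaks in clone 439, and 1096 bp against 2528 bp in clone 442. Weak peaks were narrow in both lists, and within the weakest quartile of each list the gap was smaller, at 989 bp against 1232 bp in clone 439 and 1002 bp against 1279 bp in clone 442. A peak of the other clone lay within 1000 bp of 209 of the 1009 single-clone peaks of clone 439 (20.7%) and 270 of the 1305 of clone 442 (20.7%). The median distance to one was 30299 bp for clone 439 and 37605 bp for clone 442.

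Strong peaks missing from the other clone were few. In the 2 strongest quartiles, 6 of 3786 clone 439 peaks and 13 of 3920 clone 442 peaks were single-clone. Of these, 2 of the 6 in clone 439 and 7 of the 13 in clone 442 lay within 1000 bp of a peak of the other clone, and 5 of the 6 in clone 439 and 12 of the 13 in clone 442 overlapped a WT clone 410 peak. The strongest of them was at Pitx1, which encodes a homeodomain factor of hindlimb and pituitary development.

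At Pitx1, clone 442 had a peak of 18462 bp (chr13:55822285-55840746, mm10) with a fold enrichment of 59.9, rank 234 of its list. Clone 439 had no peak there, and its nearest one was 292839 bp away. WT clone 410 had none either, its nearest being 293093 bp away, although a WT H3K27me3 region of 57.9 kb and several WT H3K4me3 peaks covered the gene. It was both the strongest and the widest single-clone peak of clone 442. A peak missing from a list does not show that SUZ12 was absent, and the reads at Pitx1 were not analysed here.

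Cdkn2b, which encodes the cell cycle inhibitor p15, had a clone 442 peak of 12364 bp (chr4:89299110-89311473) with a fold enrichment of 14.3, and WT clone 410 had one of 12118 bp with a fold enrichment of 19.4. Clone 439 had no peak over the gene, and its nearest peak ended 286 bp before the domain. The neighbouring peak was listed in all 3 clones, with fold enrichments of 47.0 in clone 439, 46.8 in clone 442 and 50.1 in WT clone 410. At Sox1, a regulator of neural progenitors, the clone 439 peak was 6.74 kb wide and stopped before the gene, while single peaks of 23.2 kb in clone 442 and 22.6 kb in WT clone 410 ran across it. The highest fold enrichment at this domain was 67.4 in clone 439, 54.3 in clone 442 and 86.1 in WT clone 410, so the domain was strong in all 3 and differed in how far it was listed.

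The reverse was seen in the HoxC cluster. A clone 439 peak of 27778 bp over Hoxc10, a patterning gene of the posterior body, had a fold enrichment of 98.1 and rank 62, and WT clone 410 had one of 27858 bp with a fold enrichment of 64.3. The clone 442 list had a gap over Hoxc10 between peaks that ended at chr15:102961271 and began at chr15:102974759, and the second of these, 46.1 kb wide, reached a fold enrichment of 60.8. Mest, an imprinted gene expressed from the paternal copy, had a pair of peaks in clone 439, with fold enrichments of 12.2 (chr6:30734872-30738333) and 6.73 (chr6:30732675-30734688). WT clone 410 had 1, with a fold enrichment of 7.18, and clone 442 had none within 217972 bp of the stronger clone 439 peak. No WT H3K27me3 region covered Mest. At En2, an engrailed homeobox gene, clone 442 had a peak of 2088 bp upstream of the gene with a fold enrichment of 44.7 that was missing from clone 439. The nearest clone 439 peak, at 29.4, lay 121 bp away, and a single WT clone 410 peak with a fold enrichment of 44.8 met both. The peak over the gene itself was shared, at 98.9 in clone 439 and 57.6 in clone 442.

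**Figure D2:**
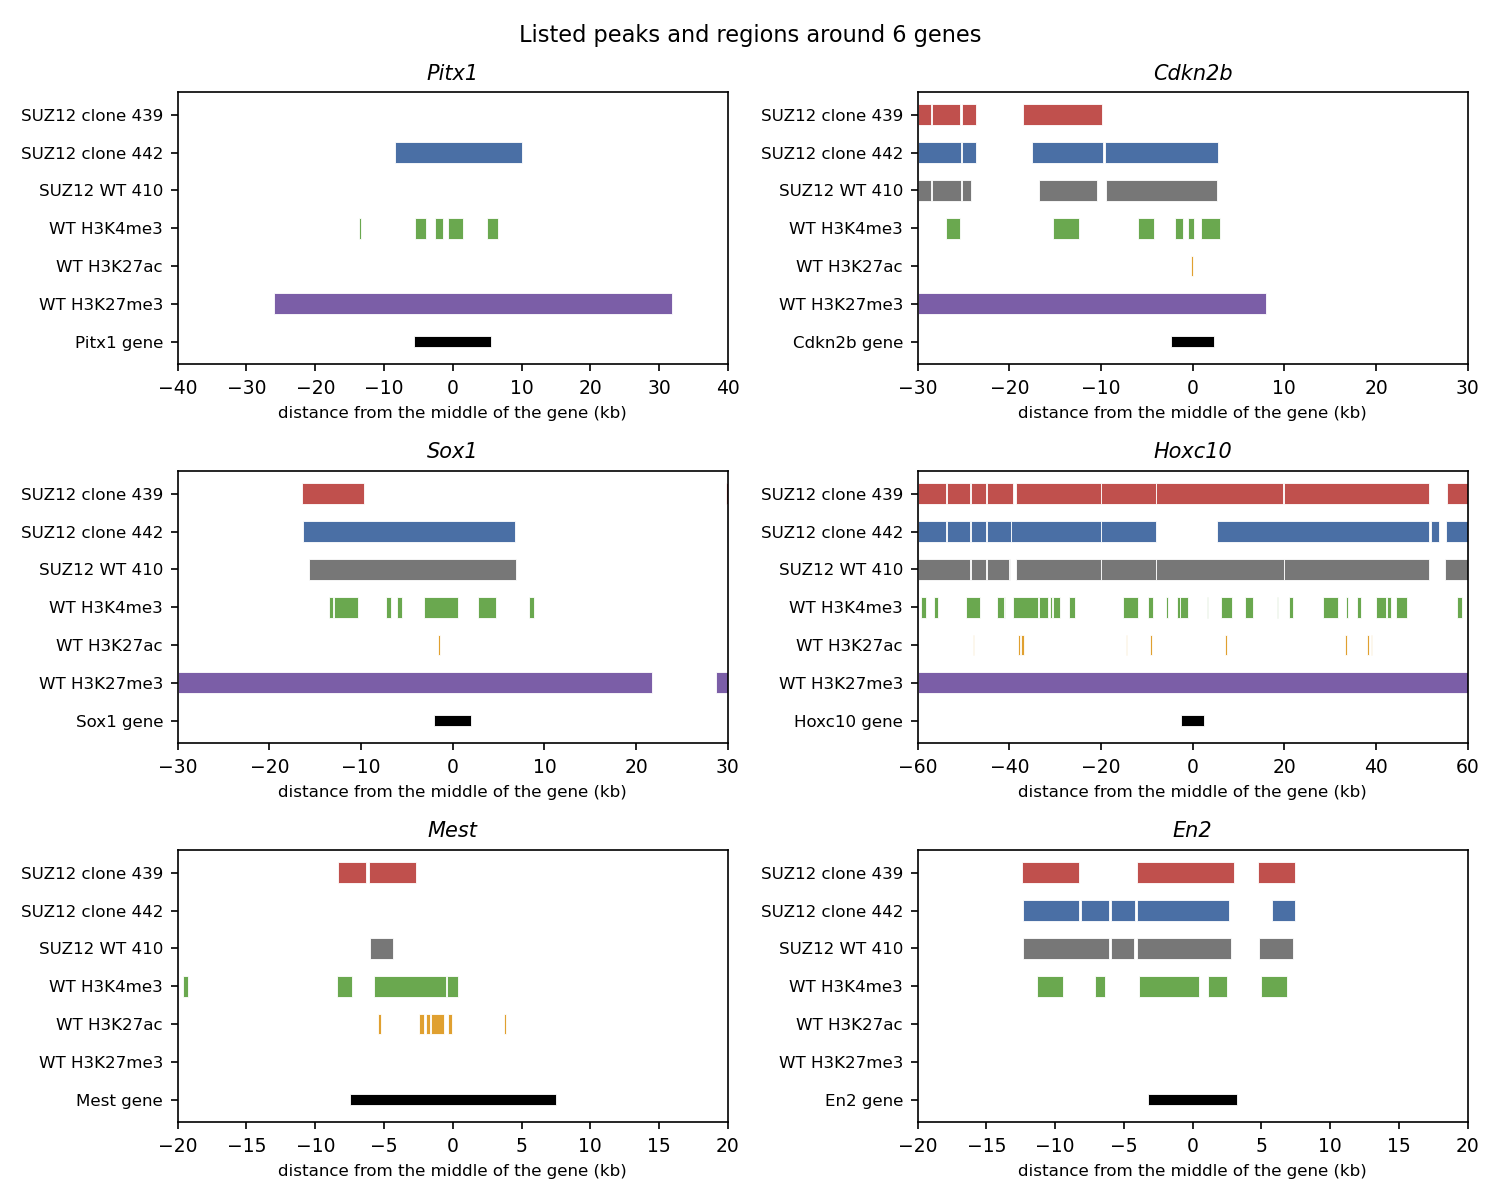
Listed SUZ12 peaks of clone 439, clone 442 and WT clone 410, WT clone 410 H3K4me3 and H3K27ac peaks and H3K27me3 regions, and the gene body, against distance from the middle of each gene in kb. The clone 439 list had no entry for the 18462 bp peak at Pitx1 or for the gene-side parts of the domains at Cdkn2b and Sox1, and the clone 442 list had none for the part of the HoxC domain over Hoxc10 or for Mest.

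Among wide single-clone peaks without a protein-coding gene in the window, clone 439 had a neighbouring pair on chromosome 2 (chr2:115850642-115855368 and chr2:115855467-115862542) with fold enrichments of 17.0 and 25.5, the nearest clone 442 peak lying 197610 bp from the wider one. Clone 442 had a peak of 9213 bp on chromosome X (chrX:12084534-12093746) with a fold enrichment of 31.8, 31051 bp from the nearest clone 439 peak. WT clone 410 had a peak at each of these. The other widest single-clone peaks were 5370 bp (chr5:75081217-75086586), 4236 bp at Nfix and 4240 bp (chr1:155083031-155087270) in clone 439, and 9464 bp (chr5:106462515-106471978) and 8971 bp (chr19:43595995-43604965) in clone 442. Each of them also met a WT clone 410 peak. The nearest clone 442 peak was 142 bp from the 5370 bp peak, 86 bp from that at Nfix and 8532 bp from the 4240 bp peak. The nearest clone 439 peak was 235 bp from the 9464 bp peak and 100 bp from the 8971 bp peak.

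At the 6339 shared sites the clones ordered the peaks in much the same way. Rank fraction runs from 1 for the strongest to 0 for the weakest peak of a list, and with the strongest peak of each clone taken at each site, Spearman's rho across sites was 0.933 (n = 6339). This is a description across sites of 2 lists that share genome, antibody and peak caller, and sites are not replicates. The median size of the difference in rank fraction was 0.0566, and 90% of sites differed by at most 0.171. Of the shared sites, 5958 (94.0%) held 1 peak of each clone, 194 held more clone 439 peaks and 167 more clone 442 peaks. In the 5958 simple pairs, summits lay a median of 52 bp apart and 70.8% lay within 100 bp of each other, and in 73.6% of pairs the wider peak exceeded the narrower by at most 25%.

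**Figure D3:**
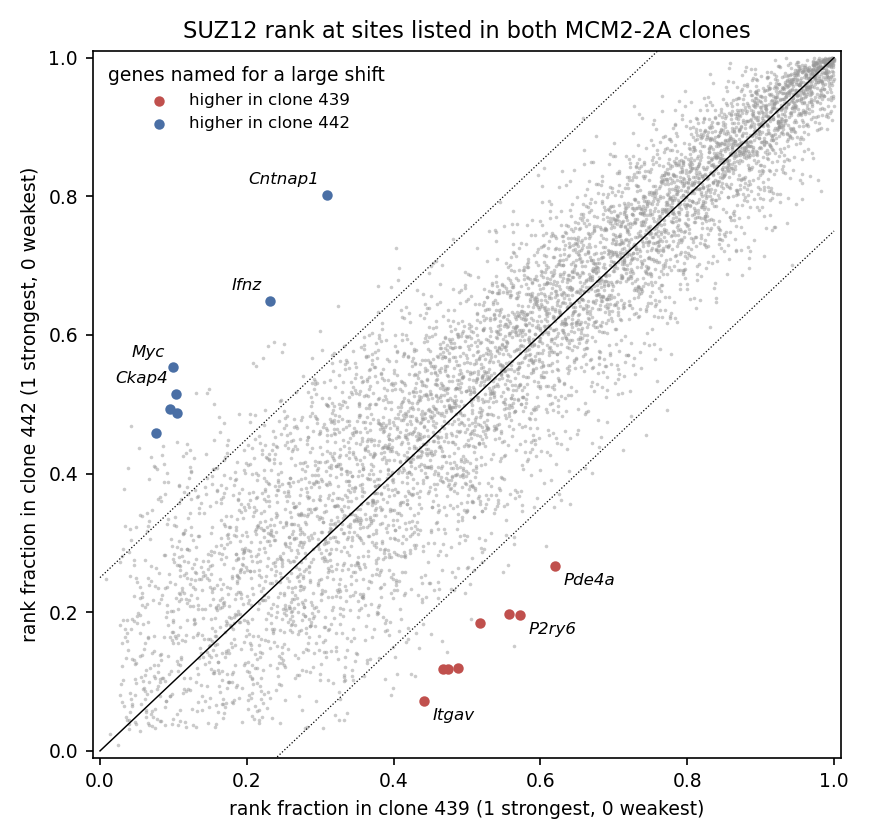
Rank fraction (1 strongest, 0 weakest) in clone 439 (x axis) and clone 442 (y axis) at the 6339 shared sites, 1 point a site, with the line of equality and dotted lines at a difference of 0.25. The points narrow towards the strong end, and the coloured genes, named for the largest differences in each direction, lie in the lower and middle range.

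Fold enrichments spanned different ranges in the 2 lists. The strongest peak reached 145 in clone 439 and 102 in clone 442, and in the simple pairs the log2 ratio of clone 439 over clone 442 had a median of 0.30 in the strongest quartile of clone 439 and -0.17 in the weakest. The medians in that strongest quartile were 45.9 in clone 439 and 38.5 in clone 442. For this reason sites were said to differ by rank, and fold enrichments of the 2 clones are listed values on separate scales.

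The genes at the top were transcription factors of development in both clones. Hmx1, a homeobox gene of eye and ear development, had a fold enrichment of 145 and rank 1 in clone 439, 88.0 and rank 19 in clone 442, and 126 and rank 12 in WT clone 410. Tbx1, a T-box factor of the pharyngeal arches, had 120 and rank 9 in clone 439, 95.2 and rank 11 in clone 442, and 133 and rank 7 in WT clone 410. Gsc, a homeobox gene of the organizer, had 129 and rank 4 in clone 439, 85.9 and rank 24 in clone 442, and 97.3 and rank 110 in WT clone 410. The other 7 of the 10 strongest genes, Nr5a1, Nfatc1, Nr2f1, Fli1, Foxd1, Nkx1-1 and Dmrta2, ranked between 2 and 36 in clone 439 and between 4 and 43 in clone 442.

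Rank fraction was higher by over 0.25 in clone 439 at 48 shared sites (0.757%) and in clone 442 at 103 (1.62%). Myc, which encodes a growth-promoting transcription factor active in ESCs, had a fold enrichment of 5.08 and rank 6819 in clone 439, 12.8 and rank 3504 in clone 442, and 9.70 and rank 3929 in WT clone 410. The Myc peaks had nearly the same borders, 2498 bp in clone 439 and 2473 bp in clone 442. The site at Cntnap1, which encodes a neuronal adhesion protein of the paranodal junction, had 7.90 in clone 439, 28.6 in clone 442 and 24.2 in WT clone 410. Here the clone 439 peak was 1108 bp wide, against 7064 bp in clone 442, and met only 1 end of the clone 442 peak. Ckap4, Paip1, Adam15 and Jund, an AP-1 subunit, were also higher in clone 442, with fold enrichments of 4.72 to 5.14 in clone 439 and 10.1 to 11.6 in clone 442. The neighbours Ifnz and Gm13272 share a single site of 416 bp, with 6.72 in clone 439, 17.1 in clone 442 and 9.62 in WT clone 410.

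In the other direction, P2ry6, which encodes a nucleotide receptor, had a fold enrichment of 15.3 (rank 3238) in clone 439, 6.02 (rank 6301) in clone 442 and 10.5 in WT clone 410. Pde4a, a cyclic AMP phosphodiesterase gene, had 17.7 (rank 2875) in clone 439, 6.82 (rank 5749.5) in clone 442 and 17.6 in WT clone 410. Here the clone 442 peak was 1199 bp wide, against 3235 bp in clone 439. It ended at chr9:21164776, before the WT clone 410 peak with this value began at chr9:21164850. Itgav, an integrin subunit gene, had 10.7 (rank 4231) in clone 439 and 4.48 (rank 7279) in clone 442 and no WT clone 410 peak. Zfp575, Zfp422, Atg16l2, Kcnn3 and Plk2 had between 11.4 and 14.5 in clone 439 and between 5.11 and 6.04 in clone 442. The values of the genes in both directions were chosen for their difference and are given as a description.

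Over whole lists, 86.7% of clone 439 peaks met a clone 442 peak and 75.6% met a WT clone 410 peak. Likewise, 83.4% of clone 442 peaks met a clone 439 peak and 73.5% met a WT clone 410 peak, the WT list being the shortest. Of all bases covered by either list of a pair, 75.5% were covered by both clones 439 and 442, 73.4% by both clone 439 and WT clone 410 and 71.4% by both clone 442 and WT clone 410. With 4723 of the strongest peaks taken from each list, 91.5% of clone 439 peaks met a clone 442 peak and 91.0% of clone 442 peaks met a clone 439 peak. With the same number, 91.4% of clone 439 peaks met a WT clone 410 peak and 91.4% of WT peaks met a clone 439 peak. In the other pair, 89.8% of clone 442 peaks met a WT peak and 90.4% of WT peaks met a clone 442 peak. Spearman's rho over simple pairs was 0.932 between clones 439 and 442 (n = 5958), 0.939 between clone 439 and WT clone 410 (n = 5238) and 0.921 between clone 442 and WT clone 410 (n = 5202), and these pairs share lists. The median difference in rank fraction was 0.0570 between clones 439 and 442, 0.0685 between clone 439 and WT clone 410 and 0.0804 between clone 442 and WT clone 410.

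A WT SUZ12 peak was present at 19.7% (17.4 to 22.3%) of clone 439 only sites, 18.9% (16.9 to 21.1%) of clone 442 only sites and 85.1% (84.2 to 86.0%) of sites in both clones. Within the weakest quartile it was present at 15.1% (12.9 to 17.6%) of clone 439 only sites, 14.1% (12.2 to 16.3%) of clone 442 only sites and 31.3% (27.3 to 35.6%) of sites in both, so the gap was smaller among weak sites. With WT peaks within 1000 bp counted, the shares were 33.5% of clone 439 only sites, 32.0% of clone 442 only sites and 86.1% of sites in both. With the 4723 strongest peaks of each of the 3 lists they were 54.3% of clone 439 only sites, 39.0% of clone 442 only sites and 94.9% of sites in both. These classes were set between the shortened lists, so a clone 439 only or clone 442 only site could be listed in both clones.

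Most single-clone sites carried H3K4me3 in WT clone 410: 80.5% (77.9 to 82.8%) of those in clone 439 only and 83.6% (81.5 to 85.5%) of those in clone 442 only, against 98.5% (98.1 to 98.7%) of sites in both. The order turned when at least 50% of a site had to be covered, at 71.4% of clone 439 only sites, 77.2% of clone 442 only sites and 68.9% of the wider sites in both. An H3K27me3 region overlapped 50.9% (47.9 to 54.0%) of clone 439 only sites, 49.9% (47.2 to 52.6%) of clone 442 only sites and 59.8% (58.6 to 61.0%) of sites in both, by at least 1 bp. For these marks, the intervals of the 2 single-clone classes overlapped. None of the 3 marks was present at 94 clone 439 only sites (9.32%), 83 clone 442 only sites (6.36%) and 52 sites in both (0.820%).

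The 2 single-clone classes differed in position and in H3K27ac. A gene start lay within 2500 bp of 37.1% (34.1 to 40.1%) of clone 439 only sites and 50.1% (47.4 to 52.8%) of clone 442 only sites, against 54.9% (53.7 to 56.2%) of sites in both. H3K27ac was present at 30.2% (27.5 to 33.1%) of clone 439 only sites, 38.9% (36.3 to 41.6%) of clone 442 only sites and 28.8% (27.7 to 29.9%) of sites in both. In the weakest quartile sites in both had the highest share, at 30.1% of clone 439 only sites, 36.1% of clone 442 only sites and 40.0% of sites in both. With at least 50% of a site covered, the shares were 13.7% of clone 439 only sites, 17.5% of clone 442 only sites and 3.94% of sites in both. Near a gene start the shares with H3K27ac were 38.2% (33.5 to 43.3%) in clone 439 only and 49.7% (45.9 to 53.5%) in clone 442 only sites. Away from one they were 25.5% (22.3 to 29.0%) in clone 439 only and 28.1% (24.8 to 31.7%) in clone 442 only sites. In the second weakest quartile the shares were 31.0% (23.96 to 39.0%) of 142 clone 439 only sites and 53.0% (46.6 to 59.4%) of 230 clone 442 only sites. Clone 442 thus had more single-clone sites with WT H3K27ac near a listed gene start, a difference between 1 list and 1 list that was not tested over samples. Starts were listed for 17492 of 21887 protein-coding genes, so sites at starts of the other genes could be counted as away from one. The clone 442 list was the longer. With the 5678 strongest peaks of each clone, H3K27ac was at 28.5% of 502 clone 439 only and 48.1% of 520 clone 442 only sites. These classes were set between the shortened lists. Against the whole list of the other clone, 147 of these clone 439 peaks and 188 of these clone 442 peaks had no counterpart. Most of these sites were therefore listed in both clones, and the part of list length was not tested.

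**Figure D4:**
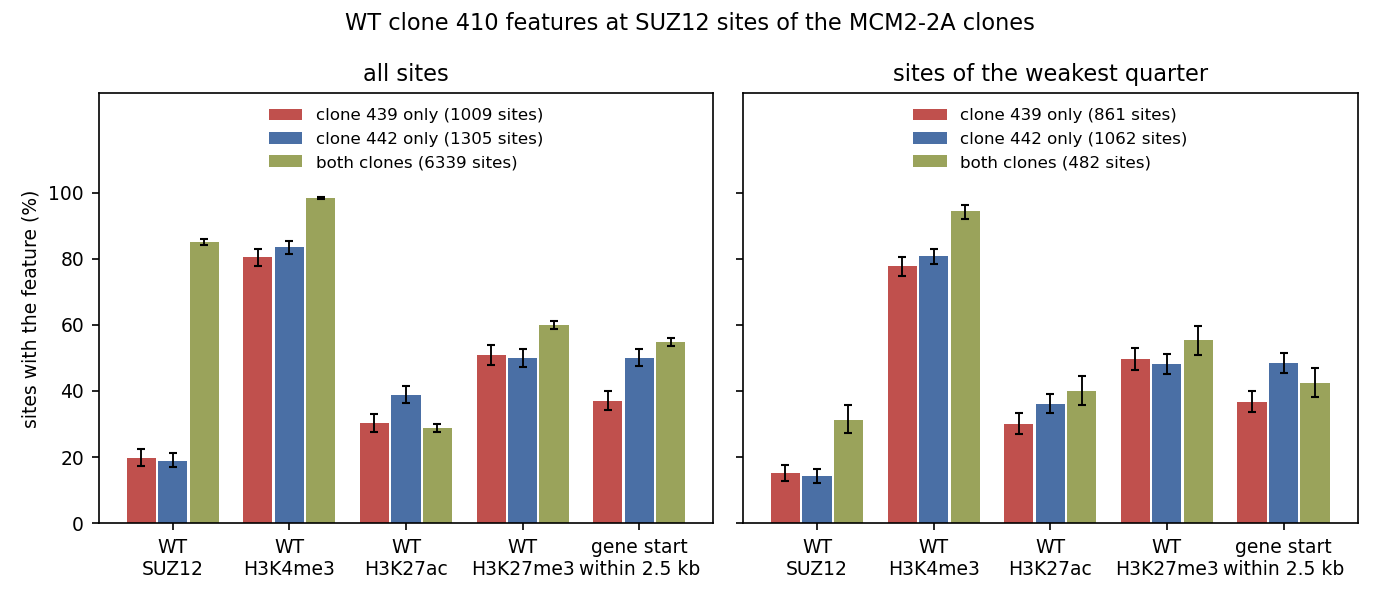
Share (%) of sites in clone 439 only, clone 442 only and both clones that overlapped a WT clone 410 SUZ12, H3K4me3 or H3K27ac peak or H3K27me3 region, or lay within 2.5 kb of a gene start, for all sites (left) and for sites whose strongest peak was in the weakest quartile of its list (right), with 95% Wilson intervals. Gene starts were near 37.1% of clone 439 only and 50.1% of clone 442 only sites, and H3K27ac was at 30.2% of clone 439 only and 38.9% of clone 442 only sites.

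At the gene level, SUZ12 lay within 2500 bp of 5721 of 21887 protein-coding genes in at least 1 of the 2 clones. Of these, 354 had it in clone 439 only (6.19%), 684 in clone 442 only (12.0%) and 4683 in both, so that 18.1% were single-clone. WT H3K27ac was near 66.1% (61.0 to 70.8%) of the clone 439 only genes, 74.0% (70.6 to 77.1%) of the clone 442 only genes and 42.4% (41.0 to 43.8%) of the genes in both. The share over all 21887 genes is not given here, so these values compare the classes with each other only. A WT SUZ12 peak was near 21.5% (17.5 to 26.0%) of the clone 439 only genes, 18.3% (15.6 to 21.3%) of the clone 442 only genes and 86.8% (85.8 to 87.8%) of the genes in both.

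Genes were then limited to those whose peak met no peak of the other clone, with no other-clone peak in the gene's 2500 bp window. This leaves out Hoxc10 and Sox1 with their shared sites. The strongest in clone 439 after Tmem121 and Mest were Ccdc158, Mid1, Gpr155, Ereg, Gabrq, Chst13, Fam162b and Adcy4, with fold enrichments of 9.50 to 10.7. WT clone 410 also had a peak at Ccdc158, Mid1, Gpr155, Ereg, an epidermal growth factor receptor ligand gene, and Gabrq, a GABA receptor subunit gene. By the same limit, the strongest in clone 442 after Pitx1, Cdkn2b and Ybx2 were Mapk11, a p38 kinase gene, with 14.2, and Zfp827, Zcchc14, Slc7a4, Edem1, Dpy19l2 and Ap3s1, with 9.50 to 10.9. Of these, Zfp827 and Zcchc14 had no WT clone 410 peak. Ybx2, a germ cell RNA-binding protein gene whose promoter is printed above, had 14.2 in clone 442 and 13.3 in WT clone 410. Tmem121 had 13.5 in clone 439, at a peak (chr12:113187174-113190035) that met no WT clone 410 peak. The WT clone 410 peak at this gene, at 6.72, met a neighbouring clone 439 peak of 12.3 (chr12:113185116-113186925).

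Of all 5721 genes with SUZ12 in either clone, 81.9% had it in both, and the lists of developmental regulators were above this share. Of the Hox genes with SUZ12 in either clone, 38 of 39 had it in both, as did 52 of 53 neural regulators, 39 of 40 mesoderm regulators and all 17 endoderm regulators. Genes of a Hox cluster share peaks and are not separate measurements. The exceptions were Hoxc10, Sox1 and Pitx1, described above, and the site at Hoxc10 and that at Sox1 were shared, with only the part over the gene missing. The median rank fraction of the shared members was 0.993 in clone 439 and 0.975 in clone 442 for Hox genes, and 0.968 in clone 439 and 0.961 in clone 442 for neural regulators, against 0.628 in clone 439 and 0.647 in clone 442 over all shared genes. All 16 trophoblast genes with SUZ12 were also shared, among them Cdx2, a factor of trophoblast and gut fate, at 106 (rank 28) in clone 439, 60.9 (rank 218) in clone 442 and 102 in WT clone 410.

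Signalling ligand genes (Wnt, Fgf, Bmp and Hedgehog) had SUZ12 in both clones at 44 of 48 genes. The exceptions were weak: Fgf17 at 6.99 in clone 439 only, and Lefty2, an antagonist of Nodal signalling, at 7.10, Fgf21 at 4.10 and Fgf4, an ESC differentiation signal, at 3.86 in clone 442 only. None of these 4 had a WT clone 410 peak.

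Genes of pluripotency and of the germline were also counted. Of 26 pluripotency genes, 6 had SUZ12, where over all genes 5721 of 21887 had it. They were Esrrb, Prdm14, Klf4 and Tbx3 in both clones, Dppa3 in clone 439 only at 6.58 and Klf2 in clone 442 only at 5.64. At Tbx3 the strongest peaks lay apart, at 5.45 in clone 439 (chr5:119682579-119683898) and 8.02 in clone 442 (chr5:119666596-119673577). That clone 442 peak met no clone 439 peak. It met a WT clone 410 peak of 10903 bp at 22.6 (rank 2073), which did not reach the clone 439 peak. Esrrb was the strongest, at 37.5 (rank 1313.5) in clone 439, 39.5 (rank 903) in clone 442 and 61.7 in WT clone 410, whereas Prdm14 had 21.9 (rank 2404) in clone 439, 9.92 (rank 4291) in clone 442 and 17.5 in WT clone 410. Of 11 germline genes with SUZ12, 4 were in clone 439 only (Prdm1, Mael, Taf7l and Sycp2, at 5.73 to 7.21), 2 in clone 442 only (Smc1b at 7.87 and Sohlh2 at 4.89) and 5 in both. This was 54.5% single-clone, against 18.1% over all genes with SUZ12, in a list of few and weak members. The strongest of the shared germline genes, Tdrd6, a component of germ granules, had 62.4 (rank 473) in clone 439, 28.1 (rank 1589) in clone 442 and 69.0 in WT clone 410.

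The subunit genes of PRC2 and PRC1 themselves had SUZ12 at 14 of 38, and 13 of these were shared. Over all genes, SUZ12 was at 5721 of 21887, and 81.9% of those were shared. Bmi1 had 82.0 (rank 185) in clone 439, 78.2 (rank 56) in clone 442 and 73.8 in WT clone 410. The exception was Epop, a PRC2 accessory subunit gene, at 4.64 in clone 442 only. Of 18 imprinted genes with SUZ12, 16 were shared, among them Igf2 at 93.5 (rank 78) in clone 439, 61.7 (rank 212) in clone 442 and 107 in WT clone 410, and the others were Mest and Mkrn3, the last at 5.14 in clone 442 only. Formative and primed genes were shared at 15 of 16, the exception being Dusp6, a feedback inhibitor of ERK, at 5.42 in clone 442 only. Of 20 MCM and histone-recycling genes, only Pole, a leading-strand polymerase gene, had a peak, at 5.45 in clone 442 only.

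**Figure D5:**
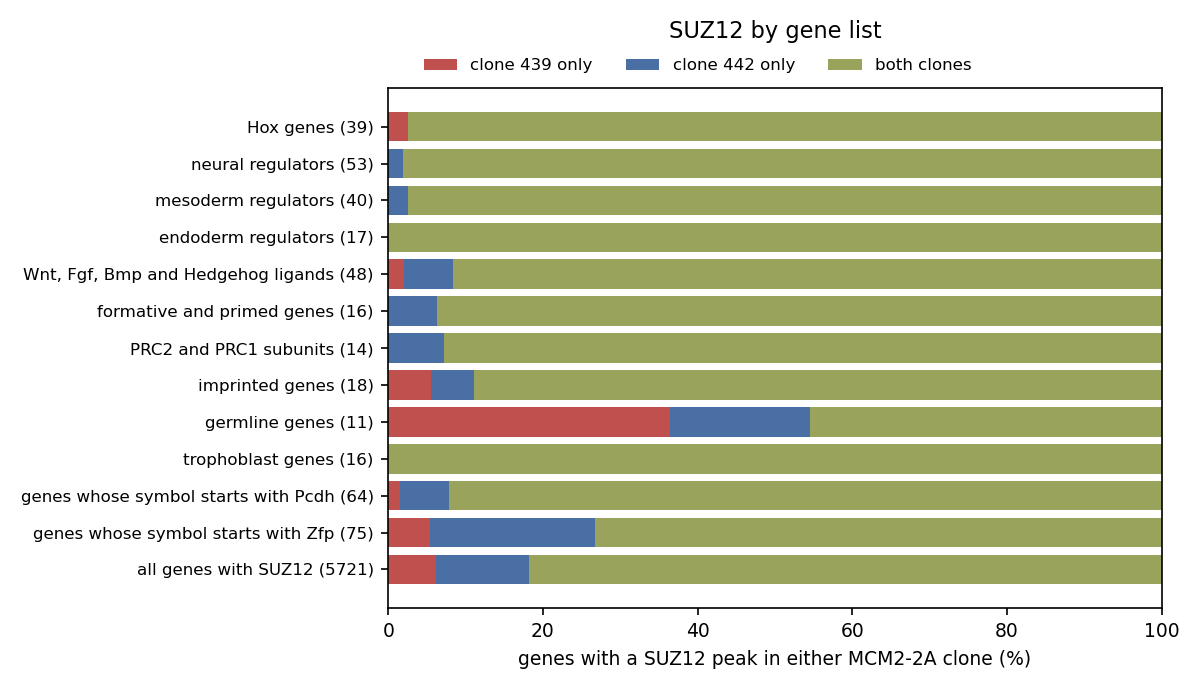
Share (%) of the genes with a SUZ12 peak in either clone that had it in clone 439 only, clone 442 only or both, for gene lists with at least 10 such genes (number in brackets) and for all 5721 genes. Single-clone genes were 1 of 39 among Hox genes, 6 of 11 among germline genes and 18.1% over all genes.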

How the data were processed

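The deposited SUZ12 lists of mouse ESC clones 439, 442 and 410 were analysed, 1 list for the 3 ChIP samples of each clone. Per the submitters' processing notes the tools were cutadapt 2.5, BWA 0.7.15, Picard 2.20.7 and MACS2 2.1.0 with build mm10. The lists hold, as deposited, a reproducibility score (minimum 540, an IDR of 0.05), the fold enrichment over local background, and the -log10 q-value of each peak. The authors' H3K27me3 regions carry a score. The sources do not say whether the Drosophila spike-in entered these values, and a pooled list gives no replicate spread. Overlaps, ranks by fold enrichment, Wilson intervals and gene windows (2500 bp of a RefSeq GRCm38.p6 start, or of either gene end where no start was given, 17492 of 21887 genes having one) were computed with Python 3.11.15, pandas 2.3.3 and numpy 2.4.6 and tested on simulated peaks. The members, gene lists and comparisons were chosen with earlier results of these data known. Named genes are the 10 strongest in both clones, the 10 strongest of each clone only, the 8 with the largest rank difference in each direction, and for each of 18 lists the 4 strongest shared and up to 6 single-clone members, beside the 5 widest single-clone peaks of each clone. En2 was added after its values were seen. H3K9me3 lists were not used here. Some items withheld for evaluation are not reported here.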

Additional observations from a re-analysis of the deposited data

How the results depend on the processing

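No paired analysis was possible because each list pools the replicates of a clone and holds no value per replicate, and leaving out each replicate could not be run for the same reason. Counts of single-clone and shared sites stayed within 1.5 times under a reciprocal overlap of 50%, a distance of 1000 bp, a stricter IDR of 0.01 and autosomes only. With the strongest 5678 peaks of each clone, 502 sites were in clone 439 only and 520 in clone 442 only, and 387 genes in clone 442 only, since weak peaks, which hold most single-clone sites, were left out. Against the whole list of the other clone, a choice made after seeing the data, 147 peaks of clone 439 and 188 of clone 442 had no counterpart. Ranked by -log10 q, Spearman's rho was 0.967 and the median rank fraction difference 0.0362, and ranked among shared peaks alone the difference was 0.0602. The median rank fraction of clone 439 only peaks was 0.106 by -log10 q, and with peaks within 1000 bp counted as shared it was 0.129 in clone 439 and 0.146 in clone 442. In the weakest quartile the median width was 989 bp for clone 439 only peaks, 1232 bp for shared peaks of clone 439, 1002 bp for clone 442 only peaks and 1279 bp for shared peaks of clone 442.

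With the rescue lists, WT H3K27me3 was at 73.0% of clone 439 only sites, 73.6% of clone 442 only sites and 78.9% of sites in both, and H3K4me3 at 83.3% of clone 439 only sites and 98.8% of sites in both. With at least 50% of the site covered, H3K4me3 was at 71.4% (clone 439 only), 77.2% (clone 442 only) and 68.9% (both), H3K27ac at 13.7% (clone 439 only), 17.5% (clone 442 only) and 3.94% (both), and H3K27me3 at 45.5% (clone 442 only) and 58.4% (both). In the weakest quartile, H3K4me3 was at 77.8% (clone 439 only), 80.8% (clone 442 only) and 94.4% (both), H3K27ac at 36.1% (clone 442 only) and 40.0% (both), and H3K27me3 at 55.4% (both). With equal numbers of the strongest peaks, H3K4me3 was at 95.6% (clone 439 only), 96.0% (clone 442 only) and 99.2% (both), H3K27ac at 28.5% (clone 439 only), 48.1% (clone 442 only) and 26.2% (both), and H3K27me3 at 57.8% (clone 439 only) and 60.4% (clone 442 only). With the 4723 strongest peaks of each of the 3 lists, a WT SUZ12 peak was at 54.3% (clone 439 only), 39.0% (clone 442 only) and 94.9% (both). A WT SUZ12 peak lay within 1000 bp of 33.5% (clone 439 only), 32.0% (clone 442 only) and 86.1% (both) of all sites. H3K27ac was more frequent at clone 442 only than at clone 439 only sites under each of the 3 alternatives run on it. The one with equal numbers of peaks set its classes between shortened lists, so most of its single-clone sites were listed in both clones. The peak values carry no read depth, so its part in the weak single-clone peaks was not tested, and where a share moved the cause was not tested.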

Other observations

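Some gene families outside developmental regulation were described as well. Of 75 genes whose symbol starts with Zfp and that had SUZ12 in either clone, 4 had it in clone 439 only, 16 in clone 442 only and 55 in both, where over all 5721 genes with SUZ12 6.19% had it in clone 439 only, 12.0% in clone 442 only and 81.9% in both. The strongest single-clone member was Zfp827 at 10.9 in clone 442. Protocadherin genes, matched by symbols starting with Pcdh, had SUZ12 at 64 of 69 genes, where over all genes 5721 of 21887 had it. Of the 64, 1 had it in clone 439 only, 4 in clone 442 only and 59 in both. Pcdh10 had 83.8 in clone 439, 70.6 in clone 442 and 90.1 in WT clone 410. Of 1110 olfactory receptor genes 3 had a peak, all in both clones, and of 355 vomeronasal receptor genes none had one.

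Leaving out chromosome Y, clone 439 only sites were 9.01% (chromosome 16) to 15.1% (chromosome X) of the sites of a chromosome, and clone 442 only sites were 9.97% (chromosome 18) to 18.5% (chromosome 16). On chromosome 16 the shares were 9.01% (5.97 to 13.4%) for clone 439 only and 18.5% (14.0 to 23.9%) for clone 442 only, and on chromosome 18 they were 12.3% (9.05 to 16.5%) for clone 439 only and 9.97% (7.07 to 13.9%) for clone 442 only. The bounds of the range were picked from 20 chromosomes.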
